A study of Mus musculus with 16 samples.

Results

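The genes of arginine and tryptophan catabolism described here are Arg1, Arg2, Nos2, Odc1, Ido1, Ass1, Asl and Slc7a2, followed in tumours and blood of mice carrying subcutaneous Hepa1-6 tumours. These 8 genes, of 16535 with a named probe, were found through the RefSeq accession of their probes. Odc1 had 3 probes and the others 1 each, and all 8 genes were among the 12298 genes tested. Hepa1-6 is a mouse hepatoma cell line. The samples were TIC, a fraction of the tumour enriched in infiltrating inflammatory cells by density gradient (8 samples), and blood of tumour-bearing mice (8 samples). Both were taken 10 days after Hepa1-6 cells had been inoculated under the skin of female mice, which the labels call C57Bl/6 and, in the treatment text, also athymic. Each sample was labelled with Cy5 on its own 2-colour array, and blood RNA of untreated female C57Bl/6 mice was the Cy3 reference on all 16 arrays. Dyes were not swapped. RNA of TIC was extracted with a Stratagene kit, and RNA of blood, kept in RNAlater, with the Ambion RiboPure kit. Athymic mice lack a thymus and so most mature T cells. Density gradient fractions are not sorted cells. The sample numbers 889, 890, 891, 893, 894, 896, 897 and 898 occur in both groups.

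Cells use arginine in competing ways. Arginases split it into ornithine and urea, and inducible nitric oxide synthase turns it into nitric oxide and citrulline. Ornithine decarboxylase sends ornithine on to the polyamines, while argininosuccinate synthase and lyase rebuild arginine from citrulline. Indoleamine 2,3-dioxygenase opens the ring of tryptophan on the way to kynurenine. Myeloid cells that express arginase, inducible nitric oxide synthase or indoleamine 2,3-dioxygenase are known to restrain T cells by depleting these amino acids or through their products.

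The promoters of 2 of the 8 genes could be given from RefSeq (GRCm38.p6), each from 250 bases before to 50 bases after the annotated start. Odc1 is shown because its 3 probes moved together, and Ass1 because it was the other member with an entry. Capitals mark the GC box GGGCGG and the E-box CACGTG, searched on both strands, and neither promoter held TATAAA. The Odc1 window is chr12:17544623-17544922 on the plus strand, with 4 GC boxes and 0 E-boxes.
Odc1: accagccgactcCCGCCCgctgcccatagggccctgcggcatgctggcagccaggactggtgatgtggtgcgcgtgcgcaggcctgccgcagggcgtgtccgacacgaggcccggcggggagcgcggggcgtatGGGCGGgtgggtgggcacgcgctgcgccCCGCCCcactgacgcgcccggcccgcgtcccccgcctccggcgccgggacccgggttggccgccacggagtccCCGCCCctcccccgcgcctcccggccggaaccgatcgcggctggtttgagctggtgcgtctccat
The Ass1 window is chr2:31470020-31470319 on the plus strand, with 1 GC box and 1 E-box.
Ass1: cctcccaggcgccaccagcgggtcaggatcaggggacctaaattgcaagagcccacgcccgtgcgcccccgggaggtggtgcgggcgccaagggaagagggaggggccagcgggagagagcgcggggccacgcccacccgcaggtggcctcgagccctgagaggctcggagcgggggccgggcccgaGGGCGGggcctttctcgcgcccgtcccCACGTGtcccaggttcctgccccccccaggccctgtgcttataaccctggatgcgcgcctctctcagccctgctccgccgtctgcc
Of 32851 promoters of this length, 35.7% held a GC box, 7.2% an E-box and 13.6% TATAAA. A match is a run of letters and not a measured binding site.

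Signals below are spot medians less the local background, in scanner units, and a probe counts as above background where the scanner software called it well above background. More probes were above background in TIC (51.1% to 65.8% of probes in Cy5) than in blood (24.8% to 36.3%), while Cy3 gave 46.5% to 51% on TIC arrays and 41% to 45.3% on blood arrays. A level in bulk RNA does not tell a larger share of expressing cells from more RNA per cell. Slides 3 and 4 held TIC and slides 1 and 2 held blood, so slide and group cannot be told apart. The fraction also held hepatoma transcripts. Of 12 named hepatoma and hepatocyte markers, 7 were above background in Cy5 on all 8 TIC arrays and 2 on all 8 blood arrays, with Fga and Tdo2 above background on no TIC array. Their summed Cy5 signal was 118800 to 677300 in TIC and 135.9 to 343.9 in blood, and their part in the results below was not tested. The 10 named monocyte and macrophage markers summed to 94530 to 366000 in TIC and 18260 to 39160 in blood, and all 10 were above background on every TIC array. The 7 fibroblast genes summed to 45230 to 230800 in TIC and 84.81 to 361.3 in blood, and the 5 named T cell genes to 14210 to 39910 in TIC and 920.8 to 1831 in blood. These sums are raw, and with no scaling the median of all genes was 2.84 log2 higher in Cy5 of TIC. Against the reference, 4 of 8 tested hepatoma, 7 of 10 monocyte and macrophage and 3 of 7 fibroblast genes were called higher. Of the 10, 1 was called lower. Of 4 tested T cell genes 0 were called there, and Cd3e was called lower in TIC minus blood. The 7 named erythroid genes were called lower in TIC than in the reference, and so were all 5 platelet, all 5 B cell and 5 of 8 tested neutrophil genes, and the part of these cell types was not tested.

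Ido1 and Slc7a2 rose in TIC relative to the blood reference with each array centred by loess, Odc1 fell under loess but not after median centring, and Arg1 stayed under the 2-fold mark. Arg1 was nevertheless bright in the sample channel of TIC and not above background in that of blood, and its Cy3 signal was high on TIC arrays as well. With median centring in place of loess, the brightest Odc1 probe was above the reference (0.79; limma adjusted p = 0.00038), and after spike-in centring it was at 0.05 (limma adjusted p = 0.82). A gene counted as called where its adjusted p was under 0.05 and its change reached 2-fold. By that rule 2 of 8 members were called higher and 1 lower in TIC over the reference. The background was 10.7% of tested genes called higher and 12.5% called lower, or 23.1% in either direction. In blood over the reference 0 of 8 members were called, against 0.789% of all genes, and for 4 of the 8 members blood gave no level above background in Cy5. Without a minimum fold, Arg2 and the 3 Odc1 probes had a limma adjusted p under 0.05 in blood, as did 6277 of 12298 genes. The Odc1 probes differed in direction there, at −0.18 for the brightest and 0.12 and 0.47 for the others.

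**Figure D1:**
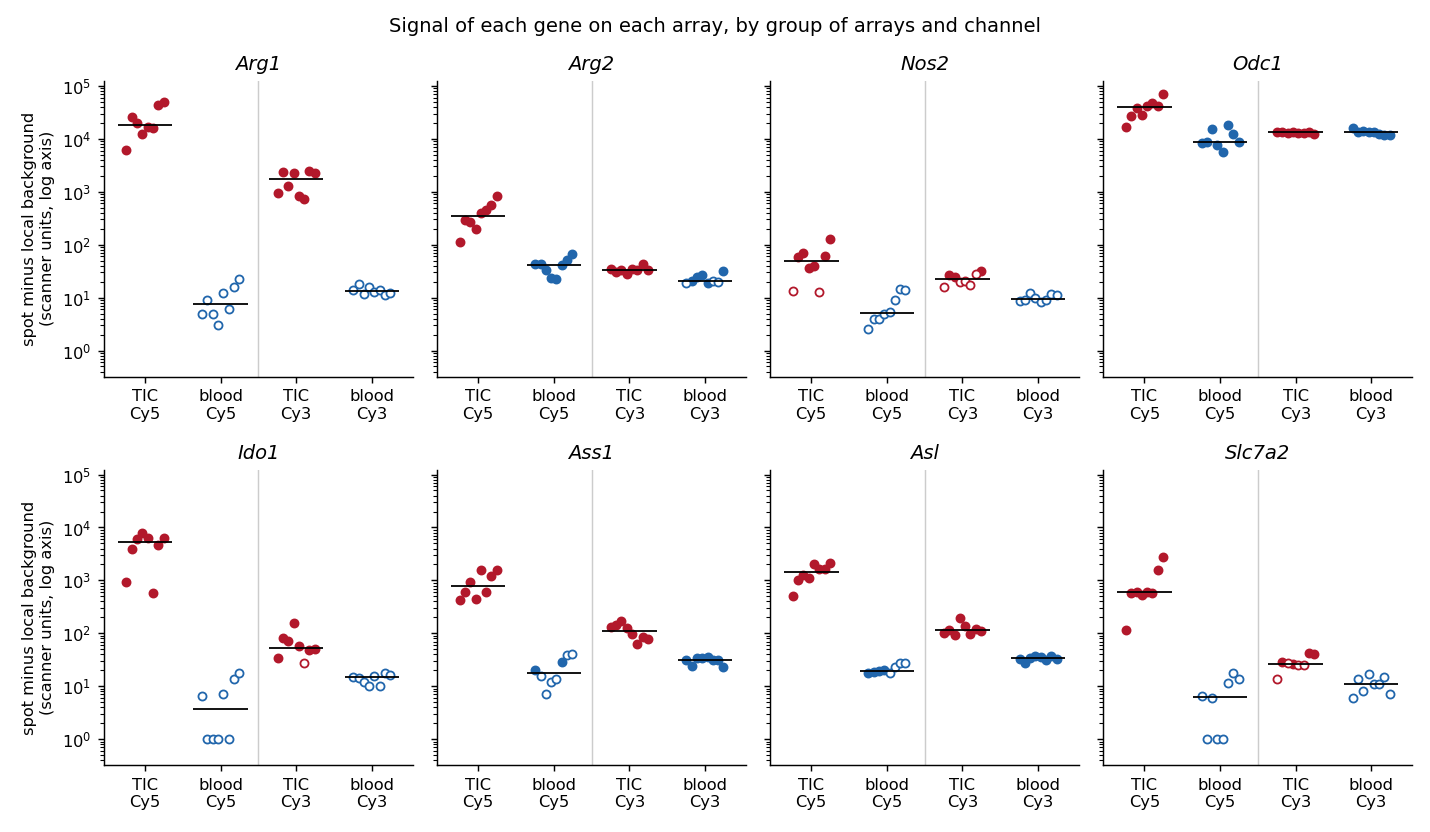
Signal of each gene on each array (spot minus local background, scanner units, log axis), with TIC left of blood for Cy5 and then for Cy3. Odc1 is shown by its brightest probe. Filled points were well above background, open points were not, values under 1 are drawn at 1, and lines are medians. Arg1 had 6244 to 49440 units in Cy5 of TIC and 735.5 to 2436 in Cy3 of the same arrays, against at most 22 and 18 on blood arrays.

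Arg1, the arginase of liver and of alternatively activated macrophages, was bright in both channels of TIC arrays and above background in neither channel of blood arrays. In Cy5 it had 6244 units in the lowest TIC sample, a median of 18300 and 49440 in the highest. Blood samples had 3, 7.5 and 22 units, and no blood array was above background. In Cy3 the same probe (A_51_P303160) had 735.5 units in the lowest, a median of 1770 and 2436 in the highest TIC array, and 11, 13.5 and 18 units on blood arrays, again with none above background. The groups did not overlap in either channel, although Cy3 is labelled as the same kind of RNA on all arrays. The log2 ratio in TIC ran from 0.05 in sample 893 over a median of 0.88 to 1 in sample 889, positive in 8 of 8 samples. Its mean was 0.74 ± 0.10 (SE, n = 8; limma adjusted p = 1.2e-05), a 1.67-fold ratio that was not called. Centring each array on its median gave 3.05, centring on the spike-in spots gave 2.31, and both were called. Less the median of all tested genes under the same scaling, each was 1.59.

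In Cy5 after loess and Aquantile, a scaling that also uses Cy3, Arg1 in TIC was 46.4-fold over the detection floor of blood. That floor is, on each blood array, the lowest signal among probes above background, or the probe's own where higher. The mean log2 was 11.75 in TIC and 6.13 in blood, where the probe was above background on no array. In Cy5 alone, with each array scaled to its 75th percentile, Arg1 was 37.6-fold over that floor, or 5.23 log2. With the percentile over probes detected on all arrays the fitted difference was 4.15 log2, against 5.25, and was still called. In Cy3 Arg1 on TIC arrays was 29.4-fold over the detection floor of blood arrays after Aquantile, which uses both channels. Scaled to the 75th percentile of Cy3 alone, it was 17.7-fold over that floor. These folds are not lower limits, since the level of a probe not above background has no upper limit here. Dye bias in them was not tested. Each fold holds for its own scaling. No p-value is given beside it, because Arg1, Ido1 and Slc7a2 passed the filter through TIC arrays alone. Of the 8 members Arg1 alone was called in Cy3, against 8.38% of all genes, 7.21% called higher and 1.16% called lower on TIC arrays. The brightness of Arg1 in Cy3 of TIC arrays was known before this comparison was chosen, so that call is no separate test. Alb and Afp, products of hepatocytes and hepatoma cells, also differed in Cy3. Alb had a median of 7555 Cy3 units on TIC arrays and 12.75 on blood arrays, where it was above background on no array. Afp had 3075 Cy3 units on TIC arrays and 128.2 on blood arrays. The part of such transcripts in the Arg1 signal was not tested.

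Arg2, the mitochondrial arginase, was above background in Cy5 in every sample. In Cy3 its probe had 28 to 44 units on TIC arrays, above background on 8 of 8. On blood arrays Cy3 had 18.5 to 31.5 units, above background on 5 of 8, so the Arg2 ratios rest on a reference close to background. Arg2 had 112, 347.2 and 817 Cy5 units in TIC (lowest, median, highest) and 22, 42 and 66 in blood, with no overlap in raw signal. Its log2 ratio was positive in all 16 samples, at 0.18 to 0.80 in TIC and 0.26 to 0.71 in blood, and the groups overlapped. The means were 0.47 ± 0.07 in TIC (SE, n = 8; limma adjusted p = 3.1e-05) and 0.51 ± 0.05 in blood (n = 8; limma adjusted p = 6.5e-07), neither past 2-fold. The difference, TIC minus blood, was −0.04 with a 95% interval of −0.24 to 0.15 (limma adjusted p = 0.69). The program's own deposited ratios gave 1.42 in TIC and 2.32 in blood, both called, and with median centring the difference was 1.27 and called. Less the median of all tested genes, that difference was −0.41. In Cy5 alone the difference was −0.90 ± 0.11 at the 75th percentile (limma adjusted p = 2.3e-07) and not called, against 2.07 and called with no scaling. Without TIC samples 897 and 898 it was −1.02 and called.

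Nos2, the inducible nitric oxide synthase, was near the detection limit. Its single probe had 9 or 10 unflagged spots on each array, and their mean was 12.6, 48.5 and 128.8 Cy5 units in TIC (lowest, median, highest) and 2.5, 5.1 and 14.8 in blood. It counted as above background, on at least 50% of its spots, on 6 of 8 TIC arrays and on 0 of 8 blood arrays. Among TIC samples, 898 was the highest with 128.8 ± 12.5 units (SD over 9 spots), while 896 had 12.55 ± 4.24 and 889 had 13.45 ± 7.43 (10 spots each), within the range of blood. The log2 ratio in TIC was −0.14 to 0.12 with a mean of −0.02 ± 0.05 (SE, n = 8; limma adjusted p = 0.67), and Cy3 was above background on 3 of 8 TIC arrays. After Aquantile, Cy5 of Nos2 in TIC was 1.08-fold over the detection floor of blood. No fold is given at the 75th percentile, where the fitted difference of −2.21 rests on a blood signal that was not measured.

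**Figure D2:**
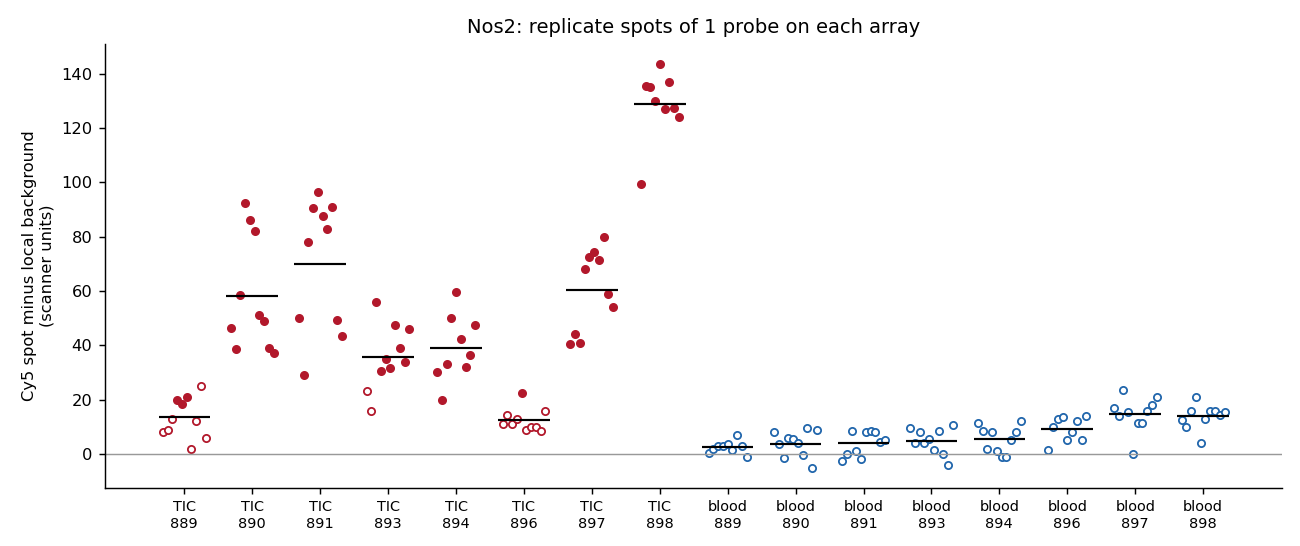
Cy5 signal of the replicate spots of the Nos2 probe on each array (spot minus local background, scanner units), TIC arrays left and blood arrays right. Filled spots were well above background, open spots were not, and lines are means over spots. Blood means lay between 2.5 and 14.8 units, and TIC samples 889 and 896 lay in that range.

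Odc1, ornithine decarboxylase, the first enzyme of polyamine synthesis, was bright in both groups, and its 3 probes gave the same direction of the TIC ratio under loess. Its brightest probe (A_51_P291347) had 16720, 39370 and 68650 Cy5 units in TIC and 5622, 8676 and 17940 in blood. Its Cy3 signal was level, at 12410 to 13660 units on TIC arrays and 11570 to 15970 on blood arrays. Raw Cy5 was thus mostly higher in TIC, with an overlap, while the value relative to the other spots of the array was lower. After loess the log2 ratio was −1.88, −1.54 and −1.29 in TIC and −0.41, −0.18 and 0.04 in blood, and the groups did not overlap. The second probe (A_52_P7041) had −2.18 to −1.92 in TIC and 0.02 to 0.24 in blood, and the third (A_52_P436238) −1.99 to −1.32 in TIC and 0.18 to 0.65 in blood.

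The mean ratio of the brightest Odc1 probe in TIC was −1.54 ± 0.07 (SE, n = 8; limma adjusted p = 2.4e-10), or 0.343 of the reference. The other probes gave −2.11 ± 0.05 and −1.59 ± 0.09. The difference, TIC minus blood, was −1.37 ± 0.09 for the brightest probe and −2.23 ± 0.06 and −2.06 ± 0.11 for the others (n = 8 each; limma adjusted p = 2.8e-12, 3.1e-19 and 7.9e-14). This direction depends on the scaling: median centring gave TIC ratios of 0.79, 0.20 and 0.52 for the 3 probes, and spike-in centring 0.05, −0.54 and −0.22. TIC minus blood likewise became 1.2, 0.47 and 0.62 with median centring. Less the median of all tested genes under the same scaling, the TIC ratio of the brightest probe lay between −1.61 and −0.67 under the 4 scalings of the ratio. In Cy5 alone the difference was −1.13 ± 0.16 at the 75th percentile (limma adjusted p = 8.7e-07), against 1.84 with no scaling and 0.44 with spike-in centring. Less the median of all genes it was −1.86 to −1 under 6 scalings. The call was lost with no background correction, at −0.29.

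Ido1, indoleamine 2,3-dioxygenase, was seen in TIC and not in blood. It had 582, 5270 and 7863 Cy5 units in TIC, above background on all 8 arrays, and −3, 3.25 and 18 in blood, above background on 0 of 8. TIC samples 896 (582 units) and 889 (926.5 units) lay below the other 6, which had 3835 to 7863. In Cy3 it had 28, 53.75 and 157.5 units on TIC arrays, with 7 of 8 above background, and 10, 14.75 and 17.5 on blood arrays. The log2 ratio in TIC was 0.90 in sample 896, 2.16 in 889 and 2.54 to 2.91 in the others, positive in 8 of 8. Its mean was 2.41 ± 0.18 (SE, n = 8; limma adjusted p = 3.9e-08), a 5.32-fold ratio, and it was called under all 20 alternatives run, between 1.97 and 4.39. In Cy5 after Aquantile, which also uses Cy3, Ido1 in TIC was 9.9-fold over the detection floor of blood. In Cy5 alone at the 75th percentile it was 6.94-fold over that floor, although the groups overlapped. TIC sample 896 was at 7.64 log2 there and blood sample 894, not above background, at 7.68. With the percentile over probes detected on all arrays the fitted difference was 1.76 log2 and called.

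Slc7a2, a transporter of cationic amino acids that brings arginine into macrophages, was also seen in TIC and not in blood. It had 115.5, 591.8 and 2713 Cy5 units in TIC and −4, 6.25 and 18 in blood, above background on 8 of 8 and 0 of 8 arrays. TIC samples 897 and 898 were the highest, at 1590 and 2713 units, and 889 the lowest. Its log2 ratio in TIC was 0.74, 1.14 and 1.79, with a mean of 1.19 ± 0.10 (SE, n = 8; limma adjusted p = 2.1e-07), a 2.28-fold ratio. The reference channel was above background on 4 of 8 TIC arrays. The call was lost with no background correction (0.81) and when a few spots far under their local background were kept in the background fit (0.91). The deposited ratios gave 3.07 and median centring 2.66, both called, and less the median of all tested genes these were 2.9 and 1.2. In Cy5 after Aquantile, which also uses Cy3, Slc7a2 in TIC was 3.17-fold over the detection floor of blood. In Cy5 alone at the 75th percentile it was 1.45-fold over that floor, where the groups overlapped and the gene was not called. With the percentile over probes detected on all arrays the fitted difference of the gene was −0.51, not called. Without samples 897 and 898 its TIC ratio was 1.02 and called.

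Ass1 and Asl, argininosuccinate synthase and lyase, rebuild arginine from citrulline. Ass1 had 431, 773.2 and 1586 Cy5 units in TIC and 7, 17.75 and 41 in blood, above background on 8 of 8 and 2 of 8 arrays, with no overlap in raw signal. Cy3 gave 63.5 to 168 units on TIC arrays and 23 to 35 on blood arrays. Its log2 ratio in TIC averaged 0.09 ± 0.12 (SE, n = 8; limma adjusted p = 0.51) and split by slide. The 4 arrays of slide 3 had −0.38 to 0.01 with a mean of −0.27, and the 4 of slide 4 had 0.16 to 0.59 with a mean of 0.45. Cy3 of the probe was 124 to 168 units on slide 3 and 63.5 to 97 on slide 4, and these samples cannot be told apart from their slide. In blood the ratio averaged 0.03 ± 0.06. The difference, TIC minus blood, was 0.06 with a 95% interval of −0.24 to 0.36 (limma adjusted p = 0.71). Median centring gave 1.88 for the TIC ratio of Ass1 and 1.91 for the difference, spike-in centring gave 1.14 and 1.31, and all 4 were called. Less the median of all tested genes under the same scaling, these were 0.42, 0.23, 0.42 and 0.22.

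Asl had 499.5, 1456 and 2161 Cy5 units in TIC and 17.5, 19.75 and 27 in blood, above background on 8 of 8 and 4 of 8 arrays. Its log2 ratio in TIC was 0.06 in sample 893 and 0.40 to 0.67 in the other 7, with a mean of 0.47 ± 0.06 (SE, n = 8; limma adjusted p = 1.8e-05), not called. Median centring (2.41) and spike-in centring (1.68) each gave a call, and less the median of all tested genes these were 0.95 and 0.96. The ratio in blood averaged −0.02 ± 0.04. In Cy5 alone Asl was 2.26-fold higher in TIC (log2 1.18 ± 0.08, n = 8 each; limma adjusted p = 6.1e-12), and the groups did not overlap. That call was lost with no background correction (0.98) and at 0.07 with the percentile taken over probes detected on all arrays. Ass1 was 0.54 ± 0.13 on the same scale and not called (limma adjusted p = 0.00076).

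**Figure D3:**
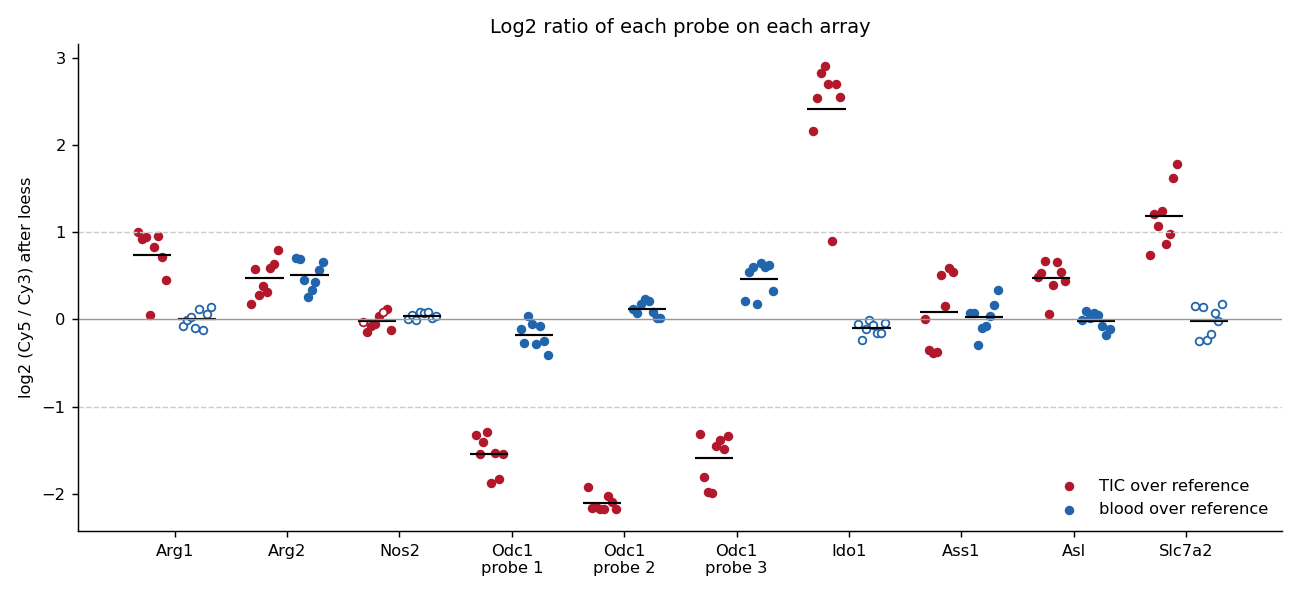
Log2 ratio of Cy5 over Cy3 after loess for each probe on each array, TIC left of blood, with dashed lines at 2-fold and short lines at the mean. Odc1 is shown by its 3 probes, and open points were above background in neither channel. Ido1 averaged 2.41 and Slc7a2 1.19 in TIC, and the brightest Odc1 probe −1.54, a direction that median centring turns to 0.79 and spike-in centring to 0.05.

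In the difference of ratios, TIC minus blood, 3 of 8 members passed the rule, 2 higher and 1 lower, against 27.6% of all genes (13.5% higher and 14% lower). Of these Odc1 had a level in both groups, while Ido1 and Slc7a2 had none above background in blood and get no difference. In Cy5 alone 5 of 8 passed, 3 higher and 2 lower, against 65.9% of all genes (29.3% higher and 36.6% lower), so that the count of members is near the background. They were Arg1, Ido1 and Asl, higher in TIC, and Odc1 and Nos2, lower at this scaling but not with no scaling (1.84 and 0.76), of which Nos2 is given no fold. The median difference of all 12298 genes in Cy5 was −0.13 at the 75th percentile and 2.84 with no scaling. Less that median, Asl lay at 0.96 to 1.31 over 6 scalings and Ass1 at 0.53 to 0.67, whereas Arg2 was at −0.93 to −0.40.

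**Figure D4:**
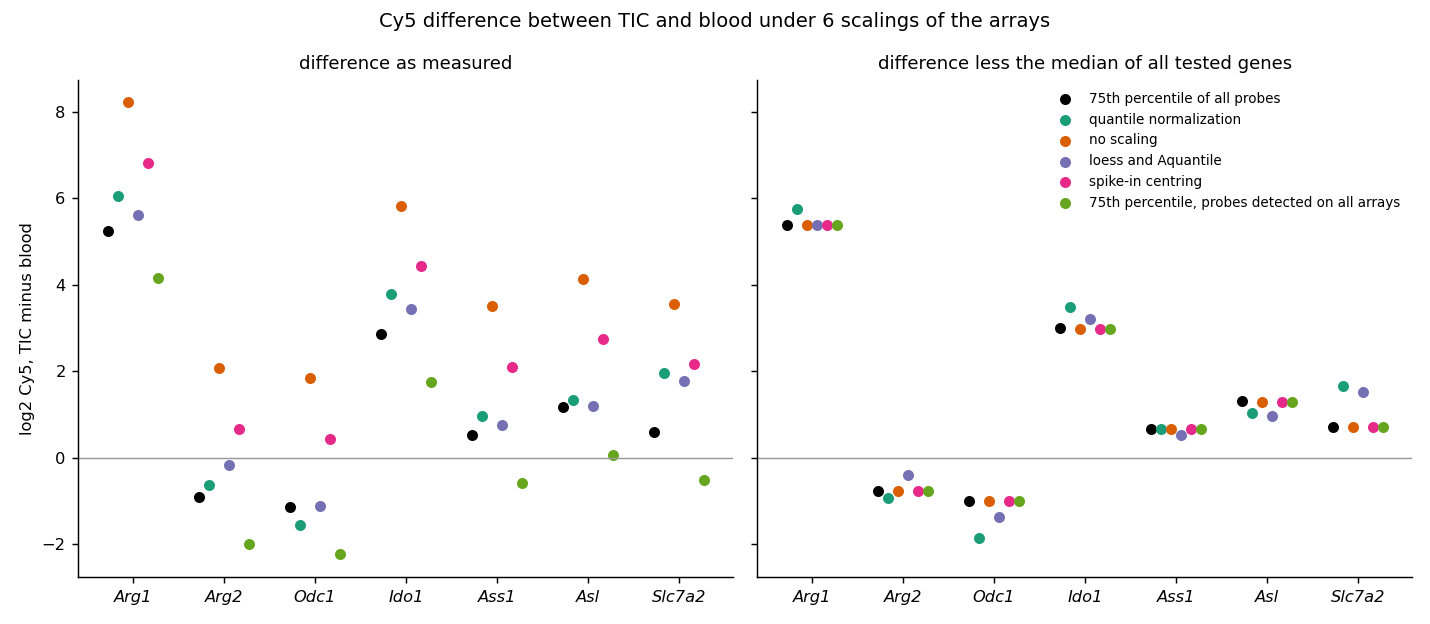
Fitted log2 Cy5 difference, TIC minus blood, of 7 members under 6 scalings of the arrays, as measured (left) and less the median of all tested genes (right). Odc1 is its brightest probe, and Arg1, Ido1 and Slc7a2 were not above background in blood, so their values are no folds. As measured, Odc1 ran from −2.23 to 1.84, and less the median from −1.86 to −1.

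Lists of genes around the members were read first in TIC over the reference, where the median of all genes was 0.05, with 10.7% of genes called higher and 12.5% called lower. Values of these genes are for loess and the 75th percentile, and other scalings were not run for them one by one. Errors after ± are SEs, with 8 arrays per group. In arginine transport, Slc7a2 was the 1 of 6 tested genes called. Slc7a7, the light chain of a basic amino acid exporter, was not called in the ratio (−0.81 ± 0.07) but rose by 2.98 ± 0.07 log2 in Cy3 and 2.89 ± 0.12 in Cy5 of TIC arrays over blood arrays (limma adjusted p = 2.1e-17 and 1.1e-14). In the urea cycle and arginine synthesis list 1 of 6 was called, with a list median of 0.47. It was Slc25a13, the mitochondrial aspartate and glutamate carrier, at 1.80 ± 0.06 (limma adjusted p = 5.7e-12). In nitric oxide synthesis and its cofactor 1 of 8 was called, with a median of −0.28. It was Gchfr, the feedback regulator of tetrahydrobiopterin synthesis, at −4.81 ± 0.08, with 176, 617.5 and 937 Cy5 units in TIC and 826, 1222 and 2604 in blood. Spr, sepiapterin reductase of the same cofactor pathway, was at 0.09 ± 0.07 in the ratio and rose by 1.55 ± 0.18 in Cy3 of TIC arrays over blood arrays.

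In polyamine metabolism, the list with the most tested genes, 2 were called higher and 7 lower of 15, with a median of −0.10. Eif5a, a translation factor among the 7, had 2748 to 13780 raw Cy5 units in TIC and 203 to 568 in blood. Its lower ratio stands beside a Cy3 signal that rose by 2.06 ± 0.08 on TIC arrays over blood arrays. Oaz1, the antizyme that sends ornithine decarboxylase to degradation, fell by 4.18 on the log2 scale (SE 0.06, n = 8; limma adjusted p = 1.1e-14). Its Cy5 signal was 5580, 13220 and 23240 units in TIC and 24380, 38500 and 58290 in blood, with no overlap. Azin1, which inhibits antizyme, fell by 3.40 (SE 0.10; limma adjusted p = 3.2e-12), although its raw Cy5 of 1257 to 4930 units in TIC overlapped the 2024 to 4573 units of blood. Paox and Dohh were the 2 genes called higher, at 1.43 ± 0.09 and 1.41 ± 0.05. Erythroid genes, called lower in 7 of 7, moved with these, and their part was not tested. In the ornithine, proline and creatine list 2 of 7 were called higher and 1 lower, with a median of 0.55. Gatm, which uses arginine for creatine synthesis, was at 2.26 ± 0.10, and Oat, ornithine aminotransferase, at −1.35 ± 0.06. Oat nevertheless had 3340, 10760 and 19730 Cy5 units in TIC and 96, 156.8 and 205 in blood, and its Cy3 signal rose by 3.11 ± 0.10 on TIC arrays over blood arrays.

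**Figure D5:**
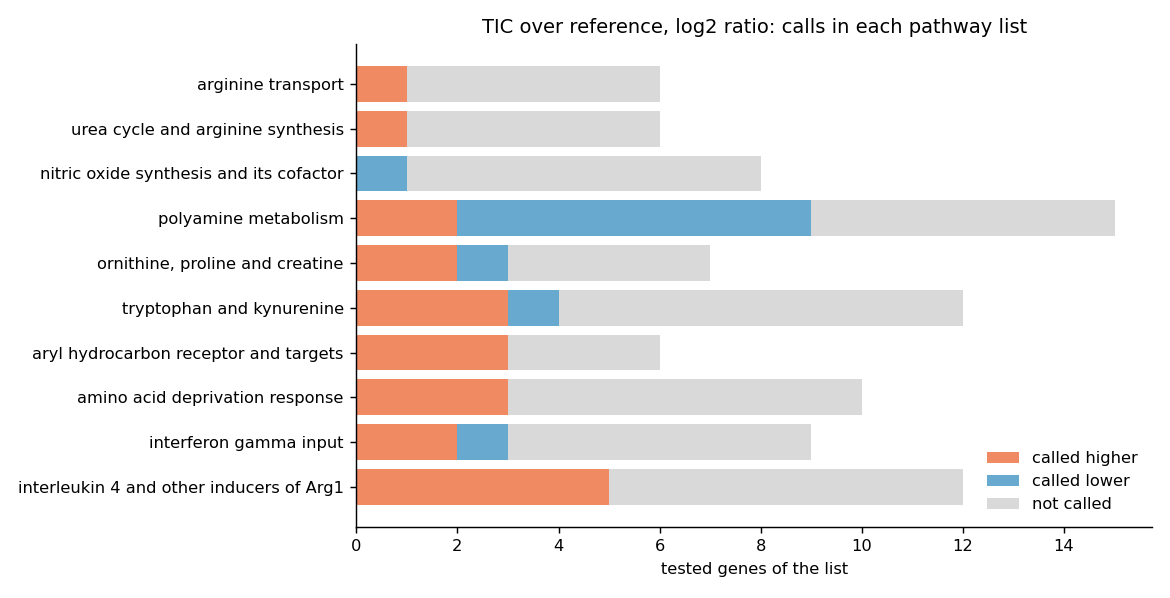
Tested genes of each of 10 pathway lists in TIC over the reference, as called higher, called lower or not called (bars start at 0). The polyamine list had 2 called higher and 7 lower of 15, a count that holds for ratios centred by loess.

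In the tryptophan and kynurenine list 3 of 12 tested genes were called higher and 1 lower, with a median of −0.07. Besides Ido1, Kyat3, a kynurenine aminotransferase, was at 1.97 ± 0.11 (SE, n = 8; limma adjusted p = 2.3e-09). Il4i1, a secreted amino acid oxidase, was at −1.78 ± 0.07. Its raw Cy5 signal was nevertheless 47, 272.5 and 571.5 units in TIC and 12.5, 35.25 and 59 in blood. Ido2 was above background on 6 of 8 TIC arrays in Cy5 and on 0 of 8 in Cy3, so its ratio is not given. Tdo2, the hepatic tryptophan dioxygenase, was above background on no array in either channel. The aryl hydrocarbon receptor, which kynurenine can activate, was among 3 of 6 genes called higher in its list. Ahr was at 2.73 ± 0.06 and its target Cyp1a1 at 2.08 ± 0.11, with Cy3 of Cyp1a1 above background on 1 of 8 TIC arrays. The list median was 0.68. In the amino acid deprivation response 3 of 10 were called higher, with a median of 0.24. Asns, asparagine synthetase, was at 2.78 ± 0.12 and Psat1, of serine synthesis, at 1.94 ± 0.12.

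Genes of signals known to induce Ido1 or Arg1 were read likewise. In the interferon gamma list 2 of 9 tested genes were called higher and 1 lower, with a median of 0.59. Ifngr1, a receptor chain, was at 1.49 ± 0.09 and Socs1, a feedback inhibitor, at 1.42 ± 0.10. Ifng itself was at −0.71 ± 0.06 in the ratio and not called, while its Cy5 signal was 10360, 23570 and 43540 units in TIC and 20.5, 33 and 44 in blood. Its Cy3 signal rose as well, by 5.38 ± 0.25 on TIC arrays over blood arrays (limma adjusted p = 2.7e-13), as did that of Atf3, a stress transcription factor, by 5.23 ± 0.11. In the list of interleukin 4 and other inducers of Arg1, 5 of 12 were called higher and 0 lower, with a median of 0.57. Hif1a was at 2.02 ± 0.09, Cebpb at 1.97 ± 0.08 and Klf4 at 1.74 ± 0.07, all transcription factors. Klf4 was also the 1 gene of these lists called in blood over the reference, where it fell by 1.02 (SE 0.07; limma adjusted p = 8.2e-09).

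In the differences between TIC and blood, other genes of these lists met the naming rule. In Cy5 alone at the 75th percentile 7 polyamine genes were called higher and 8 lower of 15, against 65.9% of all genes called. Smox, spermine oxidase, was at −3.11 ± 0.16 there, although its raw signal of 1490 to 6402 units in TIC overlapped the 2353 to 6480 units of blood. Slc7a1, a transporter of arginine, was at −2.81 ± 0.15 with 15 to 46.5 units in TIC and 14 to 42 in blood, close to background in both. Nqo1, a target of the aryl hydrocarbon receptor, was at −2.67 ± 0.14 with 28 to 198 units in TIC and 37 to 102 in blood. It was also called lower in the difference of ratios, where 3 genes of its list were called higher. Such values at the 75th percentile stand beside raw signals that overlapped. Nags and Ido2 were called lower at this scaling too and are given no fold, since blood was above background on no array. Their raw Cy5 was not lower in TIC. Nags had 35.5 to 336 units in TIC and 2 to 29.5 in blood, without overlap. Ido2 had 13.5 to 34 units in TIC and 1.5 to 25 in blood.

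In Cy3, TIC arrays over blood arrays, Eif5a, the translation factor that carries the hypusine made from spermidine, rose by 2.06 ± 0.08, and Irf1, an interferon response factor, by 1.36 ± 0.09 (limma adjusted p = 1e-14 and 1.5e-10). Klf4 rose by 1.18 ± 0.09.

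The tested genes nearest in pattern to each called member were found by the mean absolute difference of centred log2 Cy5 values over the 16 arrays. For Arg1 they were Mmp13 (0.18), Hilpda (0.22) and Cx3cl1 (0.23), and for Ido1 Ankrd1 (0.22), Jag1 (0.30) and Axin2 (0.32). Slc7a2 was nearest to Sphk1 (0.18), Col3a1 (0.21) and Flrt3 (0.23), and Asl to Utp6 (0.07), Gpn1 (0.08) and Glb1 (0.09). Odc1 was nearest to Dap (0.13), Mbnl1 (0.13) and Ndufa3 (0.14). Nos2 was nearest to Serpine2 (0.11), Ceacam19 (0.12) and Tnip3 (0.12). These distances describe likeness over 16 arrays that share the group difference, and carry no test. For Arg1, Ido1, Slc7a2 and Nos2 the 8 blood values were not above background.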

How the data were processed

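The deposited scanner files give median spot and local background intensity for each channel, written by Agilent Feature Extraction 10.5.1.1 per the file headers. Version 9.1.3.1 is the one in the submitters' processing notes. The deposited log10 ratio of Cy5 over Cy3 was background-subtracted and dye-normalised by that program per the file headers. It equals the authors' value table of the series, with a largest difference of 0 and all column medians at 0, and served as an alternative. Median intensities stood in for the planned mean intensities, which were not used here.

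Normexp (offset 50) removed background, loess normalised ratios within arrays, and single channels were scaled to each array's 75th percentile, in limma 3.58.1 under R 4.3.3 with version 1.17.8 of data.table. On 7 arrays up to 12 spots lay over 20 units under their local background and distorted the normexp fit, so that negative control spots read up to 827 units in Cy5, against 62 to 67.6 without them. A first full run had kept these spots. They were then left out of the fit and the tests, and this choice and its threshold were made after seeing that run's results. The first fit is kept as an alternative. Under normexp and loess the call of Slc7a2 in TIC over the reference exists only without these spots. The deposited ratios, which do not use that fit, also gave a call (3.07). The 87 to 153 spots per array with an outlier flag and all control spots were left out too, and 0 spots were saturated. Spots of 1 probe were averaged. Of 41174 probes, 23374 had 1 symbol through RefSeq (GRCm38.p6), 0 had several and 17800 had none. The 26494 probes tested were above background in Cy5 on 4 or more of the 8 arrays of either group, or in Cy3 on 8 or more of all 16. The probe of highest mean log2 intensity stands for its gene. The array design is older than GRCm38.p6, so no probe coordinates are given.

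Ratios were tested against 0 within each group of 8, and TIC against blood over 16 arrays, with limma (lmFit, eBayes) and Benjamini-Hochberg adjustment over all tested probes. Fits were tested on simulated data. The reference stands for 1 control sample, so its own spread is left out. Nothing states that samples are separate mice, so p-values measure the spread between these samples, and the number of arrays limits precision. The naming rule took all members, per list and comparison the 2 called genes of largest change, and the 3 genes nearest in pattern to each called member. One gene that met this rule is not reported here. Paox, Dohh, Tdo2, the detection of Ido2, and the TIC ratios of Klf4, Ifng, Spr and Slc7a7 were added after their values were seen. Members and lists were chosen with earlier results of these data known. Alternatives were other scalings, background corrections and filters, the mean over probes, single slides, slide or sample number as a block, and arrays left out.

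The correlation of same-numbered samples' deviations from their group means ran from −0.05 to 0.11 for ratios and from −0.1 to 0.19 for Cy5, over 0.1 in 2 and 3 of 8 pairs, so the numbers were not taken to pair the samples.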

Additional observations from a re-analysis of the deposited data

Results flagged for a closer look

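Odc1 differed between the groups in the test of the difference itself. TIC minus blood was −1.37 for the brightest probe (A_51_P291347), −2.06 for A_52_P436238 and −2.23 for A_52_P7041, under loess, against 1.2, 0.62 and 0.47 with median centring. In a check for a sample far from the rest of its group, made on 35 sets of 8 values that were all above background, 2 stood out, where chance flags about 1 in 20. One was the Asl ratio in TIC, with sample 893 at 0.06 and the next at 0.40, a gap of 0.55 of the range. The other was the scaled Cy3 value of the brightest Odc1 probe on blood arrays, with a gap of 0.54 of the range.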

How the results depend on the processing

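Counts of called genes were 8110 with median centring, 6814 with spike-in centring and 5759 with the deposited ratios for TIC over the reference (2844 as reported), 572, 1033 and 957 for blood over the reference (97), and 8413, 7715 and 7006 for TIC minus blood (3389). Subtraction with a floor gave 4268, 271, 5126 and, in Cy3, 1805 (1030), and no minimum fold gave 10045, 6277, 9751 and 10468. Blood over the reference had 53 with no background correction and 152 on slide 2 alone. A strict filter gave 2176 for TIC minus blood, 3584 in Cy5 (8100) and 631 in Cy3. Cy5 had 5174 with quantile normalization, 4614 with Aquantile and 12337 with no filter, and Cy3 had 1721 with no scaling. The share of calls that were higher was 46.1% for TIC over the reference, against 93.6% after median centring and 76.4% after spike-in centring. For blood over the reference it was 68%, against 2.8%, 1.06% and, deposited, 34.1%, and for TIC minus blood 49.2%, against 93.9%, 82.7% and 60.5%. In Cy5 it was 44.5%, against 56.9% with quantile normalization, 55.5% with Aquantile, 80% with spike-in centring, 97% with no scaling and 16.5% with the percentile over probes detected on all arrays. In Cy3 it was 86.1%, against 97.9% with no scaling and 68.9% with that percentile.

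Reversals were as follows. Odc1 in TIC over the reference was 0.79, 0.52 and 0.20 after median centring (A_51_P291347, A_52_P436238 and A_52_P7041 in this order throughout) and 0.05 for the first with spike-in centring. In TIC minus blood it was 1.2, 0.62 and 0.47 with median centring and 0.60 and 0.02 for the first and second with spike-in centring. In Cy5 it was 1.84, 1.69 and 1.60 with no scaling and 0.44, 0.29 and 0.20 with spike-in centring. Arg2 was 1.27 in TIC minus blood with median centring and 2.07 in Cy5 with no scaling. Nos2 in Cy5 was 0.27 with quantile normalization, 0.76 with no scaling and 0.21 with Aquantile. The cause was not tested. Over single probes of members, 1014 values stayed on their side of the threshold, 46 passed it, 11 lost it and 20 reversed, called on at least 1 side. Values not called could change sign among the 1014, as Slc7a2 and Ass1 did in Cy5 (down to −0.51 and −0.57), and Nos2, Slc7a2 and the brightest Odc1 probe in Cy3 (up to 0.28, 0.56 and 0.24).

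Leaving out 1 array at a time gave 2838 to 2908 calls for TIC over the reference, 84 to 108 for blood over the reference, 3362 to 3445 for TIC minus blood, 8063 to 8181 in Cy5 and 962 to 1068 in Cy3. With the sample number as a replicate block the counts were 3389 for TIC minus blood, 8100 in Cy5 and 1030 in Cy3, and no call of a member changed. A sample's best match was its own number in 3 of 8 pairs for ratios and 4 of 8 for Cy5. Alternatives added after seeing the data were keeping the distorting spots in the background fit (2389, 92, 2931, 7694 and 819 calls), leaving out TIC 897 and 898 together (2824, 3397, 8033 and 1061) and the percentile over detected probes. Members dim in blood have folds over a detection floor or no values there, and signal over background limits Nos2 most.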
